A study of Rattus norvegicus with 6 samples.

Results

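The genes described here are the nuclear genes of rat liver that encode subunits of respiratory complexes III, IV and V. They were chosen by symbol, as every gene whose name begins with Uqcr, Atp5 or Cox4 to Cox8, together with Cyc1, and the choice used no measured value. The rule matched 48 rows, which hold 44 symbols among 32158 loci with a symbol, and where a symbol had several loci the one with the highest mean level was taken. Of the 44 genes, 8 belong to complex III, 17 to complex IV and 17 to complex V by name, and the other 2, Atp5hl1 and Cox6c1, are pseudogenes in RefSeq and were listed at 0. Of the 17 genes named Atp5, Atp5s and Atp5sl carry the name of the complex but are not subunits of it. In the libraries 35 of the 44 reached a mean of 1 FPKM (fragments scaled to transcript length and library size, a level per length), 8 were listed at 0 in all 6 libraries and 1 stayed below that mean, so that 8 genes of complex III, 11 of complex IV and 16 of complex V were compared.

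Male obesity-prone Sprague Dawley rats, whose age the labels do not give, ate a control diet (CD) or a Western diet (WD), which is rich in fat and sucrose, for 2 weeks. Before that every animal had eaten CD, and at the end both groups went without food overnight and were given their own diet again for a short time in the morning before the liver was sampled. RNA was taken from the whole homogenate (total RNA) and from a pair of sucrose gradient fractions, a light fraction holding mRNAs with at most 3 ribosomes and a heavy fraction holding mRNAs with at least 4. RNA of 3 rats was combined in each, which gave 1 library per diet and kind of RNA and 6 libraries in all, so there was no replicate, no test between diets, and no way to tell a diet from a library. Total RNA addresses whether the diet changed the amount of an mRNA, and the heavy to light ratio of FPKM, here called ribosome density, addresses whether its place on ribosomes changed.

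Complex III takes electrons from ubiquinol and passes them to cytochrome c, complex IV passes them on to oxygen, and complex V, the ATP synthase, makes ATP from the proton gradient that the chain builds. Each is assembled from a few subunits encoded in the mitochondrial genome and many encoded in the nucleus. The nuclear mRNAs are translated on cytosolic ribosomes and their proteins are imported, and hepatocytes, which hold many mitochondria, express them strongly.

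Fragments were inferred from the FPKM values for 32 of the 35 genes, the exceptions being Atp5c1, Atp5d and Atp5g2, which therefore have no interval. The intervals given are 95% exact (Clopper-Pearson) intervals, or conditional ones for ribosome density, and cover counting error between libraries only. Relative to the CD heavy library the depth was 2.34 in the WD light library and between 1.02 and 1.57 in the other 4. All 7 hepatocyte markers were above the filter, and of 12 striated muscle markers 11 were found and 9 were at 0 in every library, with a summed level between 0.0 and 2.21 FPKM. Of 6 brown adipocyte markers 5 were found, 4 of them at 0 throughout. The summed level of 6 erythroid markers was 105 FPKM in the CD and 545 FPKM in the WD light library, and between 27.5 and 57.5 FPKM in the other 4. That of 7 Kupffer cell and macrophage markers was 86.2 FPKM in CD and 138 FPKM in WD total RNA, 72.1 and 67.4 FPKM in the light and 154 and 210 FPKM in the heavy fraction. The part of these cells in the results below was not tested, and in pooled tissue fewer cells of a type and less RNA per cell cannot be told apart.

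**Figure D1:**
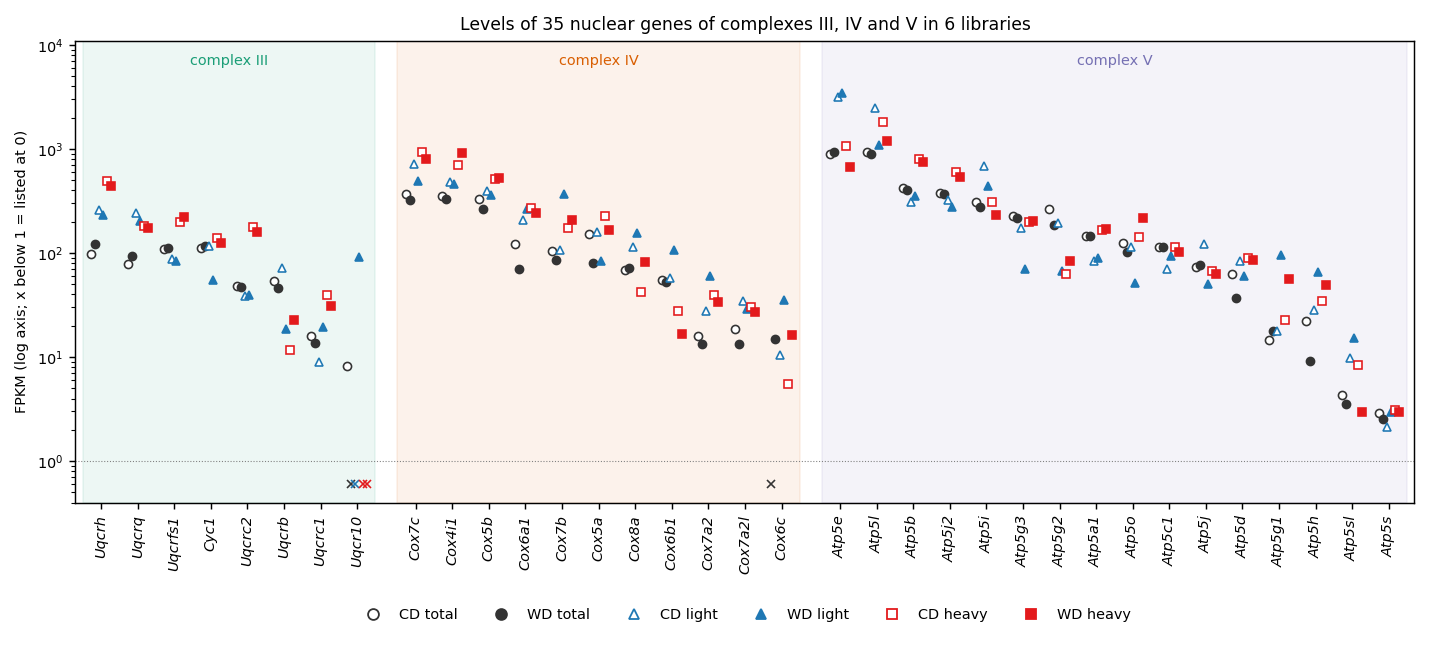
FPKM (log axis) of the 35 genes compared in each of 6 libraries, 1 point per library, ordered by mean level within each complex. Open symbols are CD and filled symbols WD, circles are total RNA, triangles the light and squares the heavy fraction, and a cross marks a value listed at 0. Atp5e and Atp5l reach the highest levels, and Uqcr10 is listed at 0 in 4 of 6 libraries.

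Complex V held the most abundant of these mRNAs. In CD total RNA the summed level was 524 FPKM over complex III, 1598 FPKM over complex IV and 4021 FPKM over complex V, and in WD total RNA it was 549.7, 1321 and 3810 FPKM. Atp5e, the epsilon subunit of the central stalk, and Atp5l, subunit g of the membrane part, were the leading genes in total RNA of both diets.

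In complex IV the isoforms known from other tissues, such as muscle, lung or testis, were at or near 0. Cox4i2, Cox6a2, Cox7b2, Cox8b and Cox8c were listed at 0 in all 6 libraries. Atp5f1, a peripheral stalk gene of complex V and not an isoform of this kind, was also listed at 0 on both of its loci. Its locus spans chr2:208323882-208587260 on Rnor_6.0, and 3 RefSeq pseudogenes are named after it. Whether its 0 comes from absence of the mRNA or from the assignment of reads was not tested. Cox6b2, the testis form of subunit 6b, had a single fragment, in the CD heavy library, which came to 5.12 FPKM there. The partners of these complex IV isoforms were plainly present. Cox4i1, the common form of subunit 4, stood at 353 and 331 FPKM in CD and WD total RNA, 481 and 463 FPKM in the light fraction, and 703 and 914 FPKM in the heavy fraction. Cox6a1, the liver form of subunit 6a, stood at 123 and 71.0 FPKM in total RNA, 206 and 266 FPKM in the light fraction, and 269 and 243 FPKM in the heavy fraction. Both were thus higher in each gradient fraction than in total RNA of the same diet. Cox6b1, the common form of subunit 6b, stood at 54.7 and 52.6 FPKM in total RNA, 57.6 and 106 FPKM in the light fraction, and 27.5 and 16.8 FPKM in the heavy fraction. Cox7b stood at 104 and 85.9 FPKM in total RNA, 106 and 366 FPKM in the light fraction, and 174 and 209 FPKM in the heavy fraction. The WD light library was the highest of the 6 for both. Cox8a, the common form of subunit 8, stood at 68.5 and 71.6 FPKM in total RNA, 113 and 156 FPKM in the light fraction, and 42.1 and 82.2 FPKM in the heavy fraction. Cox7a2, the non-muscle form of subunit 7a, stood at 15.8 and 13.2 FPKM in total RNA, 27.7 and 59.6 FPKM in the light fraction, and 39.7 and 33.9 FPKM in the heavy fraction. Its relative Cox7a2l, which joins respiratory complexes into supercomplexes, stood at 18.6 and 13.3 FPKM in total RNA, 34.6 and 29.0 FPKM in the light fraction, and 30.6 and 27.2 FPKM in the heavy fraction. Cox7a2 rested on 4 to 8 fragments in 5 of the libraries and on 28 in the WD light library.

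The promoters of these genes share letters that the choice by name did not use. NRF1, GABP (also called NRF2) and YY1 are transcription factors known to act on many nuclear respiratory genes. Their letters were searched on both strands in 300 bases, from 250 before to 50 after the start annotated by RefSeq on GRCr8, for the 29 of 35 genes found there. The NRF1 letters, the capitals of the Atp5o stretch below with any base at the sixth place, were present in 6 promoters, 20.7%, against 6.09% of all 19005 protein-coding promoters. The letters CCGGAAG (GABP) were present in 11, 37.9%, against 11.2%, and the letters AANATGGC (YY1) in 10, 34.5%, against 8.02%. At least 1 of the 3 was present in 20 of the 29 promoters, 69.0%, against 22.0% of all promoters. NRF1 letters were in 5 of 14 promoters of complex V, 1 of 6 of complex III and 0 of 9 of complex IV, GABP letters in 4, 3 and 4, and YY1 letters in 6, 2 and 2. A match is a description of the letters and not a site. The YY1 letters hold ATG, and in Uqcrc1, Uqcr10, Atp5b, Atp5j2 and Atp5o their match was centred 3 to 40 bases after the start. How many YY1 matches are start codons of the genes was not tested, among these genes or all promoters. A run of 5 or more pyrimidines at the annotated start, as in mRNAs of ribosomal proteins, was present in 0 of the 29 and in 3.96% of all promoters. At that share few would be found among 29, and the annotated start was not checked against a mapped one. Absence of such a run from the mRNAs is therefore not shown.

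The stretches below are examples, 1 match per member, from members whose levels are described here. The matched letters are in capitals, read 5′ to 3′ on the strand of the gene. Other matches are not printed, such as YY1 letters of Uqcrc1, Atp5o and Cox8a, GABP letters of Atp5j, and those of other members. Uqcrc1 lies at chr8:118468149-118468178 (plus strand), Atp5o at chr11:44657523-44657552 (minus), Atp5g2 at chr7:135678255-135678284 (minus), Cox5b at chr9:46417812-46417841 (plus), Cox8a at chr1:213833662-213833691 (minus), Atp5j at chr11:37375194-37375223 (minus) and Cox7b at chrX:75148992-75149021 (plus), all on GRCr8. The matches printed did not overlap a match of another factor.
Uqcrc1, NRF1, reverse strand: cttccttacaGCGCCTGCGCctcatactcc
Atp5o, NRF1: acgccgacgcGCGCATGCGCtctggcatca
Atp5g2, NRF1: ggctctagtcGCGCATGCGCagagccttct
Cox5b, GABP: tctgtctgttcCCGGAAGtgcatctgcttg
Cox8a, GABP, reverse strand: tttccgaaataCTTCCGGgctgaggcgtct
Atp5j, YY1: taagtgtaggaAAGATGGCggagtcttagc
Cox7b, YY1, reverse strand: cgccgcagaaaGCCATTTTgtttttcagga

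**Figure D2:**
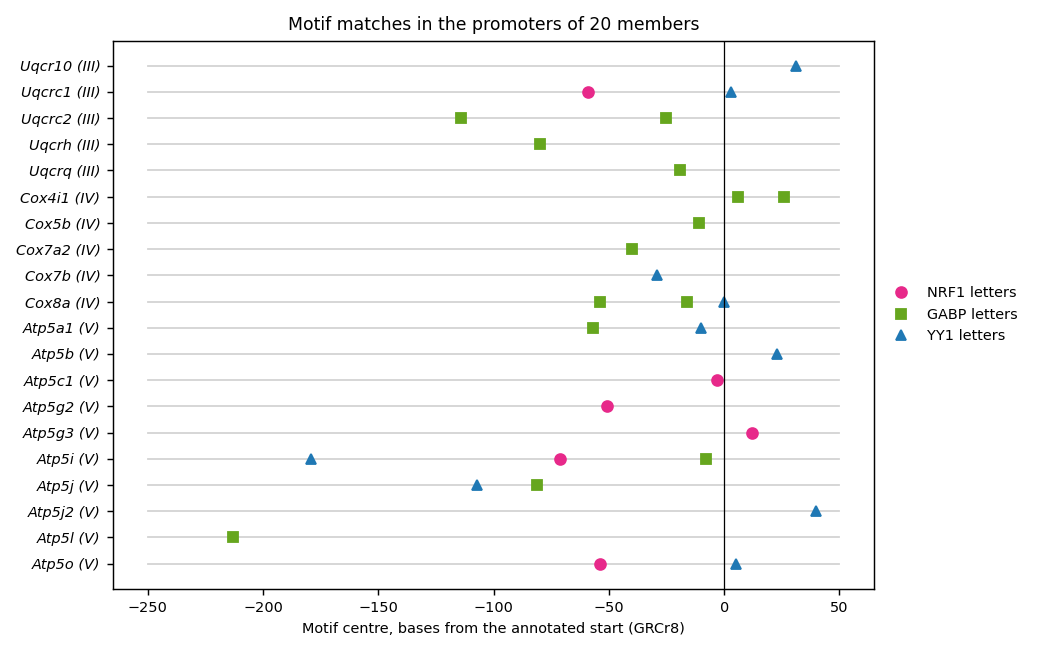
Position of each motif match in bases from the annotated start (GRCr8; 0 is the start), for the 20 of 29 promoters with at least 1 match, with the complex in brackets. Circles are NRF1, squares GABP and triangles YY1, and the grey line is the stretch searched. NRF1 letters occur in 5 promoters of complex V, 1 of complex III and none of complex IV.

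In total RNA the levels of these genes differed little between diets. The log2 change (WD over CD, of FPKM plus 0.1) had a median of -0.092 over the 35 genes, against 0.022 over all 10201 loci compared. It was below 0 in 24 genes and above 0 in 11, 31.4%, against 51.1% of all loci above 0. Its interquartile range was 0.31 over the 35 genes and 0.73 over all loci. A ratio of at least 1.5, reached by 17.7% of all loci, was found for 1 gene, Cox6c, which was at 0 in CD, and a ratio of at most 0.75, reached by 22.7%, for 7, with Uqcr10, at 0 in WD, among them. The interval of the ratio lay below 1 for 2 of 32 genes (4.05% of all loci) and above 1 for 0 of 32 (3.83%). Over genes with at least 100 fragments in the 2 libraries, the interval was off 1 in 1 of 16, 6.25%, against 21.8% of all such loci.

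Complex IV stood lowest. The median log2 change in total RNA was -0.012 over complex III, -0.26 over complex IV and -0.062 over complex V, and the ratio of summed fragments was 1.04 [0.927 to 1.18], 0.829 [0.738 to 0.93] and 0.962 [0.902 to 1.03]. In complex IV 9 of 11 genes were lower in WD, in complex III 4 of 8 and in complex V 11 of 16, against 4796 of all 10201 loci. With every library rescaled to the same summed FPKM the median of complex V became 0.034, and that of all loci shifted by 0.096. Several of the changes below 0 were smaller than that shift, so the counts of lower genes depend on the scaling.

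Both genes with an interval below 1 belong to complex IV. On Rnor_6.0, the build of the FPKM values, the locus of Cox5a spans chr8:62298358-62309765 and that of Cox6a1 chr12:46989951-47039542, and the longer Cox6a1 locus was not compared with a gene model. Cox5a, subunit 5a, stood at 154 and 80.3 FPKM in total RNA, 160 and 84.1 FPKM in the light fraction, and 227 and 168 FPKM in the heavy fraction. It was lower in WD in all 3 kinds of RNA, with a ratio of 0.523 [0.338 to 0.795] in total RNA, from 70 and 35 fragments, 0.524 [0.352 to 0.782] in the light fraction and 0.74 [0.502 to 1.08] in the heavy fraction. Cox6a1 had a ratio of 0.576 [0.346 to 0.94] in total RNA, from 49 and 27 fragments, and its intervals in the light and heavy fractions included 1. After rescaling Cox5a was the only gene whose interval in total RNA was off 1. Cox5b, subunit 5b, stood at 334 and 265 FPKM in total RNA, a ratio of 0.794 [0.588 to 1.07], at 394 and 364 FPKM in the light fraction, and at 515 and 522 FPKM in the heavy fraction. Cox6c, the subunit 6c gene, was the highest of complex IV on the log2 scale and was listed at 0 in CD total RNA. It had 4 fragments in WD, 14.8 FPKM, and the interval of its ratio, from 0.69 upward, included 1. It stood at 10.4 and 35.8 FPKM in the light and 5.57 and 16.3 FPKM in the heavy fraction.

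In complex III the changes of total RNA were small apart from a gene with few fragments. Cyc1, which encodes cytochrome c1, stood at 111 and 117 FPKM in total RNA, a ratio of 1.05 [0.817 to 1.36]. Uqcrfs1, the Rieske iron-sulfur protein, stood at 110 and 111 FPKM, a ratio of 1.01 [0.766 to 1.33]. Neither interval was off 1. The core proteins Uqcrc1 and Uqcrc2, which hold the structure of the complex, had ratios of 0.844 [0.452 to 1.56] and 0.976 [0.716 to 1.33]. Uqcrh, the hinge protein, had the highest change of complex III, with 98.7 and 122 FPKM in total RNA, 259 and 231 FPKM in the light fraction and 489 and 442 FPKM in the heavy fraction. Its ratio in total RNA was 1.23 [0.787 to 1.94]. Uqcr10, a small accessory subunit, had the lowest, with 2 fragments in CD total RNA and 0 in WD.

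In complex V the mRNAs of the catalytic head were level between diets in total RNA. Atp5a1, the alpha subunit, stood at 147 FPKM in total RNA of both diets, 84.4 and 90.1 FPKM in the light fraction, and 167 and 172 FPKM in the heavy fraction. Atp5b, the catalytic beta subunit, stood at 426 and 407 FPKM in total RNA, 309 and 356 FPKM in the light fraction, and 809 and 751 FPKM in the heavy fraction. With 765 and 699 fragments in total RNA, Atp5b had the narrowest interval of the 32 genes there, 0.861 to 1.06 around a ratio of 0.955. In the central stalk Atp5c1, the gamma subunit, stood at 115 FPKM in total RNA of both diets, 69.8 and 94.6 FPKM in the light fraction and 116 and 102 FPKM in the heavy fraction. Atp5d, the delta subunit, stood at 62.9 and 36.7 FPKM in total RNA, 83.5 and 60.0 FPKM in the light fraction and 89.6 and 85.3 FPKM in the heavy fraction. Its ratio of 0.583 in total RNA has no interval. Atp5e stood at 905 and 936 FPKM in total RNA, 3179 and 3475 FPKM in the light fraction and 1059 and 671 FPKM in the heavy fraction.

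The membrane ring of complex V is built of identical c subunits, which 3 genes encode with different import signals. Atp5g1 stood at 14.6 and 17.8 FPKM in total RNA, 17.8 and 94.9 FPKM in the light fraction, and 22.9 and 55.9 FPKM in the heavy fraction. Atp5g2 stood at 263 and 187 FPKM in total RNA, 194 and 67.3 FPKM in the light fraction, and 62.8 and 83.9 FPKM in the heavy fraction. Atp5g3 stood at 227 and 218 FPKM in total RNA, 173 and 70.6 FPKM in the light fraction, and 199 and 205 FPKM in the heavy fraction. Atp5g1 was thus the least abundant of the 3 in total RNA of both diets and the highest of the 3 in the WD light library alone. It had the highest change of complex V in total RNA, with a ratio of 1.22 [0.351 to 4.39] from 6 and 7 fragments. The lowest was that of Atp5h, subunit d of the peripheral stalk, with 22.1 and 9.26 FPKM in total RNA, 28.1 and 65.5 FPKM in the light fraction and 34.8 and 49.8 FPKM in the heavy fraction. Its ratio in total RNA was 0.418 [0.133 to 1.14] from 15 and 6 fragments.

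**Figure D3:**
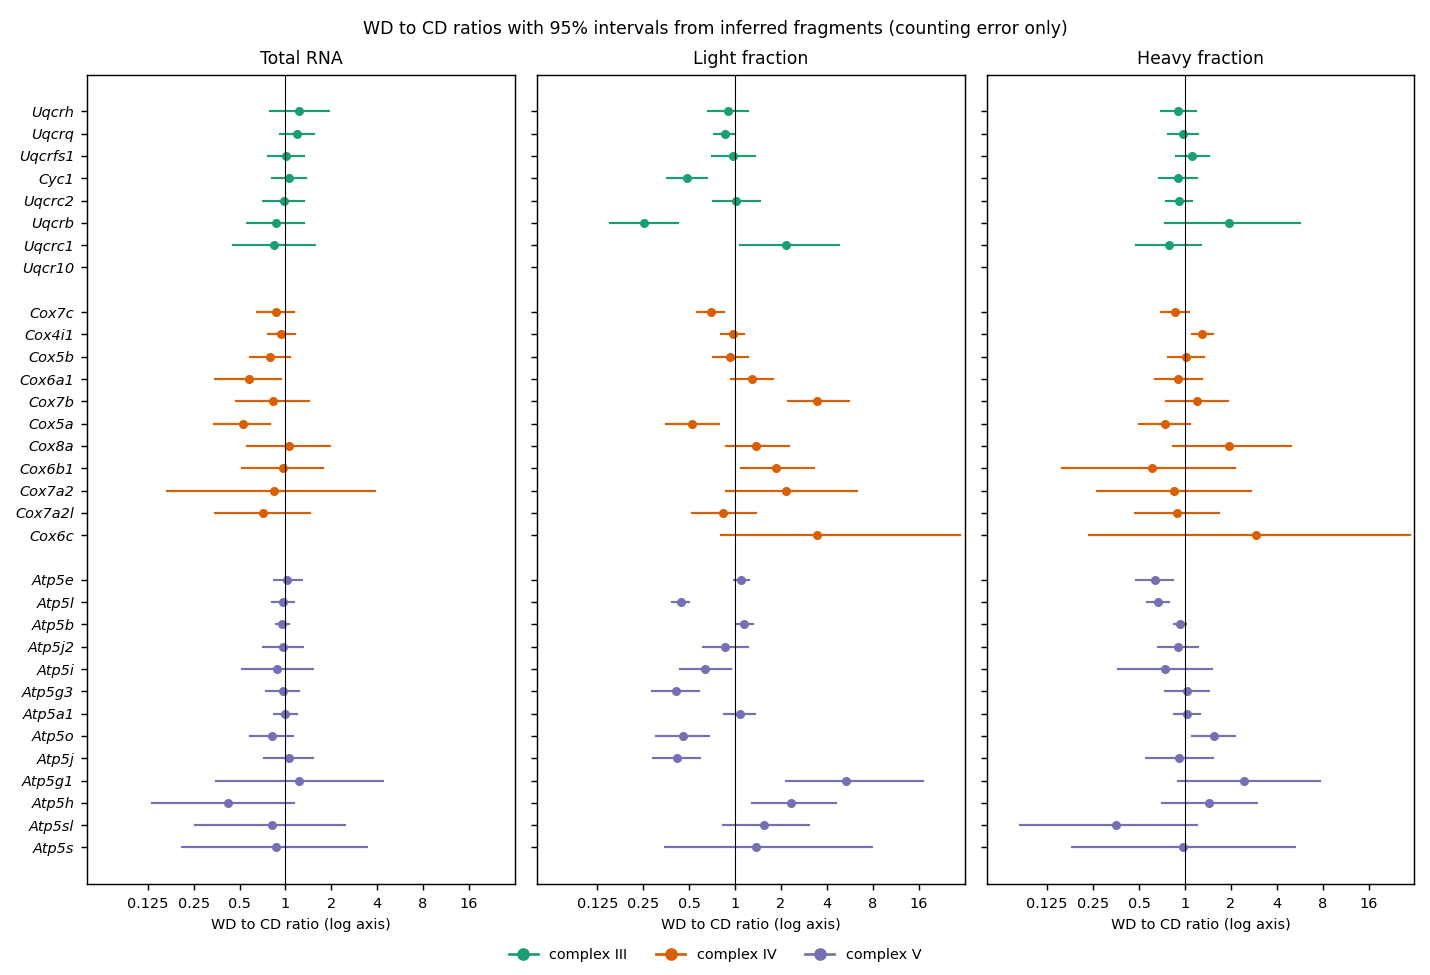
WD to CD ratio (log axis) of each of the 32 genes with fragment numbers, in total RNA, the light and the heavy fraction, with 95% intervals from the fragments of the 2 libraries (counting error only). Green is complex III, orange complex IV and purple the genes named for complex V. Most intervals in total RNA and the heavy fraction cross 1, and 16 of 32 do not in the light fraction. No ratio is drawn where a library is at 0 (Uqcr10 and, in total RNA, Cox6c), and the upper end of Cox6c runs past the axis in both fractions.

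In the light fraction the genes were spread about as widely as all loci. The median log2 change was -0.050 over the 35 genes and 0.017 over all loci, and the interquartile range was 1.14 over the 35 genes and 1.07 over all loci. A ratio of at least 1.5 was found for 9 genes (25.9% of all loci) and one of at most 0.75 for 11 (26.8% of all loci). The interval lay above 1 for 7 of 32 genes (8.81% of all loci) and below 1 for 9 (9.36%). Among genes with at least 100 fragments in the 2 libraries the interval was off 1 in 10 of 21, 47.6%, against 42.0% of all such loci.

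Complex IV had the highest median of the 3 complexes in the light fraction. The median log2 change there was -0.11 over complex III, 0.37 over complex IV and -0.061 over complex V, which became 0.094 with the genes that have fragment numbers only and -0.35 without Atp5s and Atp5sl. Rescaling each library to the same summed FPKM shifted the median of all loci by -0.31 and gave -0.46, 0.013 and -0.41, all lower than before and in the same order. The ratio of summed fragments, which the most abundant genes set, was 0.825 [0.744 to 0.916] over complex III, 1.03 [0.938 to 1.13] over complex IV and 0.84 [0.793 to 0.89] over complex V.

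Within each complex the genes went both ways. Above 1 were Uqcrc1, Uqcr10, Cox6b1, Cox7b, Atp5b, Atp5g1 and Atp5h. Below 1 were Cyc1, Uqcrb, Cox5a, Cox7c, Atp5g3, Atp5i, Atp5l, Atp5j and Atp5o, and all 9 remained below 1 after rescaling, when 15 genes were. Of the 7 above 1, Uqcr10, Cox7b and Atp5g1 remained so after rescaling and the other 4 did not.

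Atp5g1 (chr10:83895947-83898527, Rnor_6.0) had the largest ratio with fragments in both light libraries, 5.33 [2.16 to 17.0], from 5 and 58 fragments. Cox7b, a small subunit of complex IV, had a ratio of 3.44 [2.22 to 5.57], from 23 and 172 fragments, although its interval in total RNA, 0.473 to 1.42, included 1. Uqcr10 had 33 fragments in the WD light library, 90.9 FPKM, against 8.19 FPKM in CD total RNA and 0 in the other 4 libraries, so that it was higher in the WD than in the CD light library, at least 3.89-fold by the lower end of its interval and 5.06-fold against a floor of 3 fragments. After rescaling that lower end was 3.04. The WD light library was also the deepest of the 6 and had the most loci above 0 nowhere else, 74 against 8 to 44 in the others, and the part of that library in these values was not tested.

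Among the genes that were lower, Uqcrb, the ubiquinone-binding subunit of complex III, had the lowest ratio of the light fraction, 0.254 [0.151 to 0.419]. It stood at 53.7 and 46.3 FPKM in total RNA, 72.5 and 18.4 FPKM in the light fraction and 11.6 and 22.6 FPKM in the heavy fraction, where the order of the diets was reversed. Cyc1 stood at 116 and 55.6 FPKM in the light fraction, a ratio of 0.48 [0.356 to 0.649], and at 140 and 126 FPKM in the heavy fraction. In the c ring Atp5g3 had a ratio of 0.408 [0.286 to 0.581] and Atp5g2 one of 0.347 with no interval, opposite in direction to Atp5g1. In the peripheral stalk, which holds the catalytic head still, Atp5j (subunit F6) had a ratio of 0.413 [0.287 to 0.592] and Atp5o (the oligomycin sensitivity subunit) one of 0.452 [0.304 to 0.67], opposite in direction to Atp5h with 2.33 [1.28 to 4.61]. Atp5l, which has 8 pseudogenes in RefSeq and 537 and 511 light fragments, stood at 939 and 906 FPKM in total RNA, 2492 and 1091 FPKM in the light fraction and 1805 and 1197 FPKM in the heavy fraction, a light ratio of 0.438 [0.387 to 0.495].

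The heavy fraction differed less between diets than the light fraction. The median log2 change was -0.11 over the 35 genes and -0.016 over all loci, with an interquartile range of 0.41 over the 35 and 0.91 over all loci, and by complex it was -0.089, -0.14 and -0.090. A ratio of at least 1.5 was found for 5 genes (21.7% of all loci) and one of at most 0.75 for 6 (25.8% of all loci). The interval lay above 1 for 2 of 31 genes, Cox4i1 and Atp5o (3.66% of all loci), and below 1 for 2, Atp5e and Atp5l (4.34%). Rescaling left the same 4. Among genes with at least 100 fragments in the 2 heavy libraries the interval was off 1 in 4 of 17, 23.5%, against 27.5% of all such loci. The relative depth was 1.02 in the WD heavy and 2.34 in the WD light library, and lower depth widens intervals. Cox4i1 had a ratio of 1.3 [1.11 to 1.53] from 271 and 361 fragments. Atp5e had one of 0.634 [0.478 to 0.836] and Atp5l one of 0.663 [0.562 to 0.782]. These are the most abundant mRNAs of complex V in total RNA, and their total RNA ratios were 1.03 [0.836 to 1.28] and 0.964 [0.815 to 1.14]. Atp5l was the only gene of the 32 with intervals below 1 in both gradient fractions, and after rescaling Atp5e was another. The share of all loci with such a pair of intervals was not counted.

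Atp5o was the only one whose light and heavy intervals lay on opposite sides of 1, and after rescaling Cox4i1 was another. How many of all loci have intervals on opposite sides of 1 was not counted either. Atp5o (chr11:32081574-32088002, Rnor_6.0) stood at 125 and 101.5 FPKM in total RNA, 113 and 51.1 FPKM in the light fraction, and 141 and 218 FPKM in the heavy fraction. Of the 35 genes, 6 were higher in WD in both fractions (24.1% of all loci), 11 lower in both (25.4%), 10 higher in light and lower in heavy (24.6%), and 7 lower in light and higher in heavy (20.6%), with 1 gene at 0 in both heavy libraries.

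The division of the mRNAs between the fractions was then taken within each diet. In CD the median log2 heavy to light ratio was 0.32 over the 35 genes and 0.012 over all loci, and in WD it was 0.29 and 0.0. The interquartile range was 1.07 over the 35 genes and 1.80 over all loci in CD, and 1.72 and 1.90 in WD. By complex it was 0.59 over complex III, 0.38 over complex IV and 0.25 over complex V in CD, and 0.81, -0.13 and 0.22 in WD, where rescaling turned the median of complex IV to 0.18. In CD a ratio of at least 1.5 was found for 9 genes (32.9% of all loci) and one of at most 0.75 for 9 (36.6%), and in WD for 13 (31.4%) and 10 (38.5%). The interval lay above 1 for 9 of 31 genes in CD (15.8% of all loci) and below 1 for 7 (14.0%). In WD it lay above 1 for 13 of 32 (19.2%) and below 1 for 7 (17.8%). Among genes with at least 100 fragments in the 2 libraries it was off 1 in 12 of 18 in CD, 66.7%, against 74.7% of all such loci. In WD it was off 1 in 15 of 18, 83.3%, against 73.8%.

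By value, 17 genes were higher in the heavy fraction in both diets (35.9% of all loci) and 8 were higher in the light fraction in both (34.1%). Of the others, 5 were higher in heavy in CD and in light in WD (14.0%), and 4 the other way round (11.9%). The 17 are Cyc1, Uqcrfs1, Uqcrc1, Uqcrc2 and Uqcrh of complex III, Cox4i1, Cox5a, Cox5b and Cox7c of complex IV, and Atp5a1, Atp5b, Atp5c1, Atp5d, Atp5g3, Atp5j2, Atp5o and Atp5s of the genes named for complex V. Uqcrc2 stood farthest toward the heavy fraction in CD, at 48.5 and 47.3 FPKM in total RNA, 38.6 and 39.1 FPKM in the light fraction and 177 and 161 FPKM in the heavy fraction, and its heavy to light ratio was 4.58 [3.34 to 6.39] in CD and 4.12 [3.24 to 5.26] in WD. Uqcrfs1 stood at 86.8 and 83.9 FPKM in the light and 197 and 222 FPKM in the heavy fraction, and its ratio was 2.27 [1.66 to 3.14] and 2.64 [2.07 to 3.38]. That of Atp5b was 2.62 [2.32 to 2.96] and 2.11 [1.92 to 2.31]. The 8 toward the light fraction are Uqcrq, Cox6b1, Cox6c, Cox7a2l, Cox8a, Atp5e, Atp5i and Atp5sl. Atp5e, within the same F1 part as Atp5b, had a ratio of 0.333 [0.272 to 0.405] in CD and 0.193 [0.153 to 0.241] in WD.

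The FPKM that 1 fragment is worth is larger for shorter mRNAs and served as a measure of length. Its Spearman correlation with the heavy to light ratio across the 32 genes was -0.31 in CD and -0.40 in WD, and across 7363 loci -0.067 and -0.052, a description across genes that share the same libraries. By complex it was -0.55 over complex III, 0.027 over complex IV and -0.46 over complex V in CD, and -0.48, -0.26 and -0.20 in WD. With the heavy fraction set against total RNA it was -0.034 and -0.048 across the 32 genes.

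**Figure D4:**
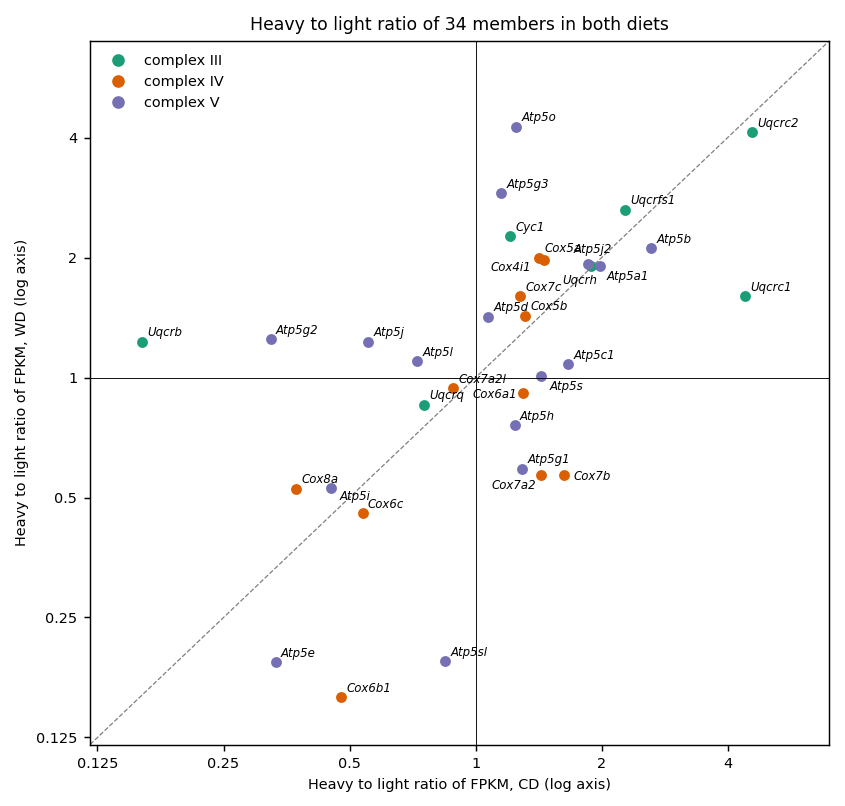
Heavy to light ratio of FPKM in CD (horizontal, log axis) and WD (vertical, log axis) of the 34 genes with both, 1 point per gene, coloured by complex. The dashed line marks equal ratios. Genes such as Uqcrc2, Uqcrfs1 and Atp5b lie upper right, Atp5e lies lower left, and Atp5o, Atp5g3 and Uqcrb lie above and Uqcrc1 and Cox7b below the line.

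Ribosome density was then compared between diets, as the WD heavy to light ratio over the CD one. On the log2 scale its median change was 0.054 over the 35 genes and -0.021 over all loci, and 0.10, 0.089 and 0.0009 over complexes III, IV and V. A ratio of at least 1.5 was found for 7 genes (27.7% of all loci) and one of at most 0.75 for 12 (36.1% of all loci). The 12 include Uqcr10, which enters through the 0.1 FPKM added. After rescaling the first number became 12. Where heavy was divided by total RNA, the second became 6 and the median of complex IV 0.35. The interval lay above 1 for 7 of 31 genes (5.89% of all loci) and below 1 for 5 (4.99%). Among genes with at least 100 fragments in the 4 gradient libraries the interval was off 1 in 10 of 25, 40.0%, against 21.3% of all such loci. Rescaling shifted the median of all loci by 0.30 and the medians of the 3 complexes to 0.43, 0.42 and 0.33, and the interval was then above 1 for 10 genes and below 1 for 2.

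The genes with higher density in WD were Cyc1, Uqcrb, Cox4i1, Atp5g3, Atp5l, Atp5j and Atp5o, and all 7 remained so after rescaling. For 6 of them the light interval was below 1, and for Cox4i1 the heavy interval was above 1 instead. Atp5o had a ratio of 3.41 [2.03 to 5.73], Atp5g3 one of 2.52 [1.55 to 4.11], and Cyc1 one of 1.87 [1.22 to 2.86]. That of Cox4i1 was 1.35 [1.06 to 1.71]. The highest of complex III was Uqcrb with 7.67 [2.48 to 25.2], which rests on 7 and 14 heavy fragments. The highest of complex V was Atp5g2 with 3.85 and no interval, and that of complex IV was Cox8a with 1.42 [0.525 to 4.05].

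The genes with lower density in WD were Uqcrc1, Cox7b, Atp5b, Atp5e and Atp5sl, and of these Cox7b and Atp5e remained so after rescaling. Cox7b had a ratio of 0.349 [0.178 to 0.681] and Atp5e one of 0.58 [0.428 to 0.784]. Uqcrc1 stood at 16.1 and 13.6 FPKM in total RNA, 9.05 and 19.6 FPKM in the light fraction and 39.8 and 31.3 FPKM in the heavy fraction. Its ratio was 0.364 [0.143 to 0.878], from 10 fragments in the CD light library. That was the lowest ratio of complex III, and Uqcr10, without a heavy fragment in either diet, has none. The lowest of complex IV was Cox6b1 with 0.332 [0.0774 to 1.34], and the lowest of complex V above a mean of 10 FPKM was Atp5g1 with 0.457 [0.0981 to 2.12]. Atp5s and Atp5sl, the genes that are not subunits, had means below that, and Atp5sl had a ratio of 0.23 [0.0477 to 0.959]. Without them the median change of complex V was 0.14.

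Other genes of the respiratory chain and its assembly were described in the same way. Over 38 genes named for complex I the median log2 change was -0.032 in total RNA, 0.47 in the light fraction and 0.019 in the heavy fraction. These genes include its assembly factors and Ndufa4, a subunit of complex IV described below. Their median change of ribosome density was -0.34, with 10 ratios of at least 1.5 (27.7% of all loci) and 18 of at most 0.75 (36.1%). The 4 genes of complex II, the succinate dehydrogenase, were all higher in WD total RNA, against 51.1% of all loci. Their changes were 0.026 to 0.12 on the log2 scale, with a median of 0.058 against 0.022 over all loci. No interval was computed for them, and rescaling shifted the median of all loci by 0.096, so their direction was not tested. Over 69 mitochondrial ribosomal proteins the median was 0.0 in total RNA and 0.14 in ribosome density. Of 34 assembly factors of the 3 complexes 29 were found and 25 compared, with 8 ratios of at least 1.5 (17.7% of all loci) and 7 of at most 0.75 (22.7%) in total RNA and a median of 0.066. In ribosome density they had 5 (27.7%) and 11 (36.1%) and a median of -0.31. Of 12 regulators of respiratory genes 11 were compared, with 3 ratios in each direction in total RNA (17.7% and 22.7% of all loci). By value 6 of the 11 were higher and 5 lower in WD total RNA, with Esrra, at 8.10 and 2.81 FPKM, the lowest (51.1% of all loci higher). Of the factors whose letters are printed above, Nrf1 stood at 3.00 and 7.54 FPKM in CD and WD total RNA, Gabpa at 3.40 and 4.54 FPKM, Gabpb1 at 2.29 and 2.79 FPKM and Yy1 at 3.84 and 6.69 FPKM, low levels for which no interval was computed. The 6 subunits of complexes III, IV and V encoded in mitochondrial DNA had no locus under their own symbol.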

How the data were processed

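Livers were homogenized, ribosomal RNA was removed, and each library was sequenced from RNA of 3 pooled rats. Per the study's methods, reads were aligned to Rnor_6.0 with TopHat and quantified with Cufflinks and Cuffnorm, and what was deposited for each locus is an FPKM value and the authors' lower and upper Cufflinks bounds. The annotation is not given in the sources used here.

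The comparison was limited to the 10201 of 33022 loci that had a symbol and no failed estimate and averaged 1 FPKM or more. Each log2 change, and each count of ratios past a cutoff, adds 0.1 FPKM to the authors' values. This understates changes of low genes above 0 and sets the size of a change where a library is at 0. In total RNA it gave 7.22 for Cox6c, from 0 and 4 fragments, and -6.37 for Uqcr10, from 2 and 0. Each ratio printed uses the deposited FPKM values alone. Percent values give shares of loci or of promoters. The cutoffs of 1.5 and 0.75 are the study's, which set them on CD over WD. Here they were set on WD over CD and in every comparison, and as they are not symmetric the counts differ from the study's rule, under which 10 of the 35 genes pass in each direction (30.9% and 32.9% of all loci). Fragment numbers were inferred as the whole numbers that 1 step per gene and 1 factor per library explain, which succeeded for 77.8% of the 12380 genes detected in 3 or more libraries and, once the values had been jittered by 1%, for 0.331%. The method was tested on simulated data built from numbers it had itself inferred. Genes for which it failed were thus not covered by that test. Since reads carried no molecular identifiers, fragments may be copies of 1 molecule, and intervals cover counting error only. Absolute depth is unknown, and the genes given numbers held between 251196 and 740521 fragments per library. Of the 35 genes compared, 21 have a RefSeq pseudogene named after them (at most 8, for Atp5l), and reads could be split between copies. How multiply aligned reads were counted is not given in the sources used here.

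The genes and lists were chosen with earlier results of these data known. Values in every library are given for the catalytic and core subunits, the F1 and c ring genes, the isoform pairs of complex IV, the highest and lowest gene per complex for total RNA and ribosome density above a mean of 10 FPKM, and further genes whose intervals were off 1. Alternatives were other pseudocounts and filters, rescaled libraries, the heavy fraction over total RNA, and changes of the gene set. Promoters are from RefSeq on GRCr8, another build than that of the FPKM values. Scripts ran in Python 3.11.15 with scipy 1.17.1 for intervals, numpy 2.4.6 and pandas 2.3.3 for tables, and matplotlib 3.10.9 for plots.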

Additional observations from a re-analysis of the deposited data

Results flagged for a closer look

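Atp5o, the oligomycin sensitivity subunit of the ATP synthase, moved in opposite directions in the gradient fractions. Its WD to CD ratio was 0.452 in the light fraction [0.304 to 0.67], from 55 and 54 fragments at unequal depth, and 1.54 [1.12 to 2.14] in the heavy fraction, and both intervals were off 1. By value, 20.6% of all loci were lower in WD in the light and higher in the heavy fraction. The share of all loci with both intervals off 1 in this way was not counted. The difference between diets was not tested, since each diet had 1 library per fraction.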

How the results depend on the processing

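No leave-one-out value exists with 1 library per group. No paired analysis was possible because no group has a replicate and the result comes from no test. Of 211 values under alternatives, 183 stayed within counting error (counts within 1.5 times), 25 moved and 3 moved and changed sign. Some of the 183 could not have moved. Leaving out Atp5s and Atp5sl, or genes without fragment numbers, removes no gene of complex III or IV, so those medians could not move. Rescaling the libraries, which acts on every gene, moved 13 values, moved 2 more with a change of sign and left 21 within these limits. Of the 183, 6 medians close to 0 changed sign too, in total RNA for complex III and in density for all 3 complexes. Pseudocounts of 0.01 and 1 FPKM and values at 0 set to the floor moved none. Among the genes compared, the floor acts on Uqcr10 and Cox6c alone. Rescaling each library to the same summed FPKM moved the median log2 change of complex V in total RNA to 0.034, a change of sign, those of the light fraction to -0.46, 0.013 and -0.41 (complexes III, IV, V), those of heavy to light in WD to 1.11, 0.18 (a change of sign) and 0.53, and those of ribosome density to 0.43, 0.42 and 0.33. It moved the genes with a density ratio of at least 1.5 to 12, and the genes with an interval below 1 to 1 in total RNA, 15 in the light fraction and 2 in density, and above 1 to 3 in the light fraction. With no filter the light median of complex IV was 0.18. Under a stricter filter (mean of 10 FPKM), and equally without Atp5s and Atp5sl (chosen after seeing the data), complex V gave -0.35 in the light fraction, 0.31 in heavy to light in WD and 0.14 in density. With fragment numbers only, also chosen after seeing the data, it gave 0.094 in the light fraction, a change of sign, and 0.13 in heavy to light in WD. When heavy was set against total RNA instead, the density median of complex IV was 0.35, 6 genes had a density ratio of at most 0.75, and the length correlations were -0.034 and -0.048. The cause of these moves was not tested. The comparison with protein length was not run, and the value of 1 fragment took its place, after seeing the data. Depth limits genes such as Cox6c, Cox7a2 and Atp5g1, with under 10 fragments in most libraries.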

Other observations

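Partners of these complexes whose names the rule does not match were measured too. Usmg5, a small membrane subunit of the ATP synthase, was listed at 0 in 5 libraries and at 324.8 FPKM in the WD light library. Atpif1, the inhibitor of the ATP synthase, was listed at 11.2 FPKM in that library and at 0 in the others, and so was Cox14, an assembly factor of complex IV, at 93.9 FPKM. Like Uqcr10, each of these genes was thus at 0 in WD total RNA, so the values are not plain levels of the mRNA. The WD light library had the most loci above 0 nowhere else, 74, and its part in these values was not tested. Ndufa4, a subunit of complex IV named for complex I, stood at 28.5 and 12.5 FPKM in CD and WD total RNA, 28.5 and 10.1 FPKM in the light fraction, and 63.5 and 98.8 FPKM in the heavy fraction, lower in WD in the light and higher in the heavy fraction. Cycs, the cytochrome c that carries electrons between complexes III and IV, stood at 231 and 252 FPKM in total RNA, 323 and 141 FPKM in the light fraction and 89.4 and 34.9 FPKM in the heavy fraction, lower in WD in both fractions.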
